A study of Homo sapiens with 15 samples.

Results

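The genes described here encode the subunits of the nuclear RNA polymerases I, II and III. They were taken by name: every gene of the count tables whose symbol begins with POLR1, POLR2 or POLR3 followed by a letter, with the reads of all its 3' end regions added. This gave 30 of 19531 gene names, with 137 of 68625 regions. By symbol, 5 belonged to polymerase I, 15 to polymerase II and 10 to polymerase III. By use, 3 serve polymerase I only, 10 polymerase II only and 10 polymerase III only, while POLR1C and POLR1D serve both I and III and 5 POLR2 genes (POLR2E, POLR2F, POLR2H, POLR2K, POLR2L) serve all 3 enzymes. Subunits still listed under other symbols (CD3EAP, TWISTNB and ZNRD1 of polymerase I, CRCP of polymerase III) were not chosen by the rule and are given with the related factors. Reads under 2 joined names, GCOM1,POLR2M with 18778 reads and POLR2J2,UPK3BL1 with 6896, were left out of the 30.

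The study measured RNA made during a short labelling time in U2OS cells, a human osteosarcoma line, in different phases of the cell cycle. Growing, unsynchronised cells received 4-thiouridine and EdU together for 45 min, were fixed with glyoxal and methanol, and were sorted by EdU signal and DNA content into G1, Early_S, Late_S and G2 (which also holds mitotic cells), although the series title calls the cells synchronised. In SLAM-seq, alkylation of 4-thiouridine turns its reading from T to C, and a read with such T>C conversions comes from RNA made while the label was present. Each phase had 3 libraries, and 3 further libraries, No_alk, came from RNA without alkylation; the labels do not say which cells No_alk was made from, and its other protocol text was the same. All groups were U2OS cells with no drug or genetic change named in the labels. Libraries were made from 500 ng of RNA with a 3' end kit. Nothing in the labels says that the 3 libraries of a group were separate cultures, so p-values measure only the spread between these libraries, which may be technical.

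Polymerase I makes the large ribosomal RNA precursor in the nucleolus, polymerase II makes messenger RNA and many small nuclear RNAs, and polymerase III makes transfer RNA, 5S ribosomal RNA and other short RNAs. Each enzyme has a pair of large subunits that form its catalytic cleft, an assembly platform, a stalk, and a set of small subunits common to all of them. The core subunits are expressed in every dividing cell, which need not hold for alternative subunits such as POLR3G and POLR3GL or for gene copies.

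Promoters are printed for POLR2B, POLR3A, POLR2E and POLR2L because these genes differed across the phases in all reads, have 1 RefSeq start each and share the window with no other gene. The first 2 were lowest in Early_S and the other 2 highest there. Each run is the 250 bases before the RefSeq start (GRCh38.p14), read along the gene: chr4:56978646-56978895, plus strand for POLR2B, chr10:78029516-78029765, minus strand for POLR3A, chr19:1095376-1095625, minus strand for POLR2E and chr11:842530-842779, minus strand for POLR2L. Capitals mark matches to the motifs searched.
POLR2B: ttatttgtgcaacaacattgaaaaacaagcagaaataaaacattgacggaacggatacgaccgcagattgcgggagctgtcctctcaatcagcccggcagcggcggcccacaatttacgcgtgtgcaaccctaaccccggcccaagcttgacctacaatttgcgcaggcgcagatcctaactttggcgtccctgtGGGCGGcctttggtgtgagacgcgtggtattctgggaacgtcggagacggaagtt
POLR3A: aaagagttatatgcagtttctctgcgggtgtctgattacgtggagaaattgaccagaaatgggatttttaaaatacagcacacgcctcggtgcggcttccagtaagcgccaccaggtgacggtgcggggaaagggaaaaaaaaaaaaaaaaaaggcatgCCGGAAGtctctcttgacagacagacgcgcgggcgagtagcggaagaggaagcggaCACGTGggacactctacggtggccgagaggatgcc
POLR2E: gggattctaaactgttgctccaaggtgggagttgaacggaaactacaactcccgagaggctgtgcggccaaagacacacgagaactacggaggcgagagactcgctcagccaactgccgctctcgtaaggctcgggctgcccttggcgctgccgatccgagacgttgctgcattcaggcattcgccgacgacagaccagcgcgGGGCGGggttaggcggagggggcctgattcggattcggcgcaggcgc
POLR2L: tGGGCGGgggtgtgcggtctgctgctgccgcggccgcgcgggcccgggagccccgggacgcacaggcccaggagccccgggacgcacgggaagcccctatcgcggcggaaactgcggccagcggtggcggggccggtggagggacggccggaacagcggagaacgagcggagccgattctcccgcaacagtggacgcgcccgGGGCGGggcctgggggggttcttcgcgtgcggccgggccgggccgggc
The search covered both strands for GGGCGG (the box bound by SP1), CCGGAAG (the core known for ETS factors), GCATGCGC (known for NRF1), CACGTG (an E-box), CCAAT (known for NF-Y), TATAAA (the TATA box), TTTGGCGC (known for E2F) and TTTGAA (the cell cycle homology region), none of which holds another of them. The SP1 box began 55 bases before the start of POLR2B, 47 before that of POLR2E, and 48 and 249 before that of POLR2L. The POLR3A window held an E-box 35 bases and an ETS motif 91 bases before the start. The promoter table used here had entries for 21 of the 30 genes, with 27 starts. Of these 27 windows, 77.8% held the SP1 box, against 42.6% of all 35116 windows. The ETS motif was in 29.6% against 8.52%, and the NRF1 letters in 18.5% against 2.63%. Genes with more than 1 start can count more than once, as POLR1B did for ETS and POLR2F for NRF1. The POLR2F windows with the NRF1 letters overlap. The E-box was in 7.41% against 6.34%, CCAAT in 18.5% against 32.01%, TATAAA in 3.70% against 10.7% and TTTGAA in 7.41% against 13.3%. No polymerase window held the letters TTTGGCGC, which 0.550% of all windows did. These are matches of letters, with no test, and say nothing of binding.

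The libraries held 16096695 to 21803972 reads in regions, of which 1812606 to 4037464 had a T>C conversion in the phases and 175212 to 182253 in No_alk. The T>C share of all reads was 22.3% ± 0.740 (G1), 18.4% ± 0.516 (Early_S), 10.05% ± 0.0870 (Late_S), 10.1% ± 0.336 (G2) and 1.01% ± 0.0179 (No_alk; SD, n = 3 each). This share was lower in Late_S and G2 than in G1 and Early_S, and every result on T>C reads depends on how that fall is scaled. Of 11 mesenchymal and bone markers, 10 had an entry and 8 were above 1 CPM (reads scaled to a common library size) on average. VIM, SPARC and COL1A1 were among the 8, while COL1A2 had 32 reads and SP7 5 reads in all phase libraries. Summed epithelial markers (5 of 6 above 1 CPM) were 36.1 to 50.8 CPM (G1), 21.2 to 25.6 (Early_S), 24.1 to 38.1 (Late_S) and 29.04 to 30.8 (G2). Summed blood markers (1 of 6 above 1 CPM, CD3E and HBB at 0 reads) were 0.169 to 0.552 CPM (G1), 0.559 to 4.99 (Early_S), 0.918 to 2.997 (Late_S) and 2.32 to 3.58 (G2); the part of either list in the results below was not tested. The 6 cyclin and other phase genes fixed as markers of the sort were CDKN1A, CCNE1, CCNA2, CCNB1, TOP2A and PLK1. All 6 differed across the phases in all reads, as did 34.1% of all 13755 tested genes. Such a call alone does not show the phase in which a gene was highest.

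All 30 genes had reads. POLR2A, the largest polymerase II subunit, had only 37 reads over the 12 phase libraries, in 1 region (hg38 chr17:7499522-7499758) that ends 14858 bases before the RefSeq 3' end of the gene; it was below the filter and was not tested, and its real level cannot be read from these tables. POLR2M, a polymerase II-associated subunit, had 133 reads, in a region (chr15:57751171-57751446) 33889 bases from its RefSeq end. POLR2J2 and POLR2J3, near-identical copies of the POLR2J gene, had 93.0% and 91.5% multimapped reads, so reads of these copies cannot be separated and both are uncertain; no other member was above 5%. Among the genes called in all reads or T>C reads, the region with most reads of POLR2B also overlaps IGFBP7 in RefSeq, that of POLR2C overlaps DOK4, POLR2E ARHGAP45, POLR2I OVOL3, POLR2J LRWD1 and POLR2J3 SPDYE2, and those of POLR3B and POLR3E each overlap a locus named only by its number. Some genes not called also share their region, and that of POLR2M lies in another RefSeq locus only; whether the counting used strand is not given in the sources used here.

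The first question was whether polymerase subunit RNA differs between phases. In all reads, which hold old and new RNA alike, 13 of 29 tested members differed across the phases (edgeR quasi-likelihood F-test, Benjamini-Hochberg adjusted p under 0.05 over all genes), where 34.1% of all 13755 tested genes did. They were POLR1B of polymerase I, POLR3A, POLR3B and POLR3E of polymerase III, and 9 of 14 POLR2 genes. Among the subunits common to all 3 enzymes 4 of 5 were called, and of the 2 shared by I and III none was (by unadjusted p under 0.05 both were, POLR1C and POLR1D). The differences were small: the highest phase mean was 1.21 to 2.98 times the lowest, with a median of 1.47. In the plot of called genes by phase, the called large subunits POLR1B, POLR2B, POLR3A and POLR3B, and also POLR3E, had their lowest mean in Early_S. POLR2E, POLR2G, POLR2I, POLR2J and POLR2L had their highest mean there. Of the 15 members not called, apart from POLR2M, 4 also had their lowest mean in Early_S. The lowest and highest phases were not counted over all genes, so these counts do not set the members apart.

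**Figure D1:**
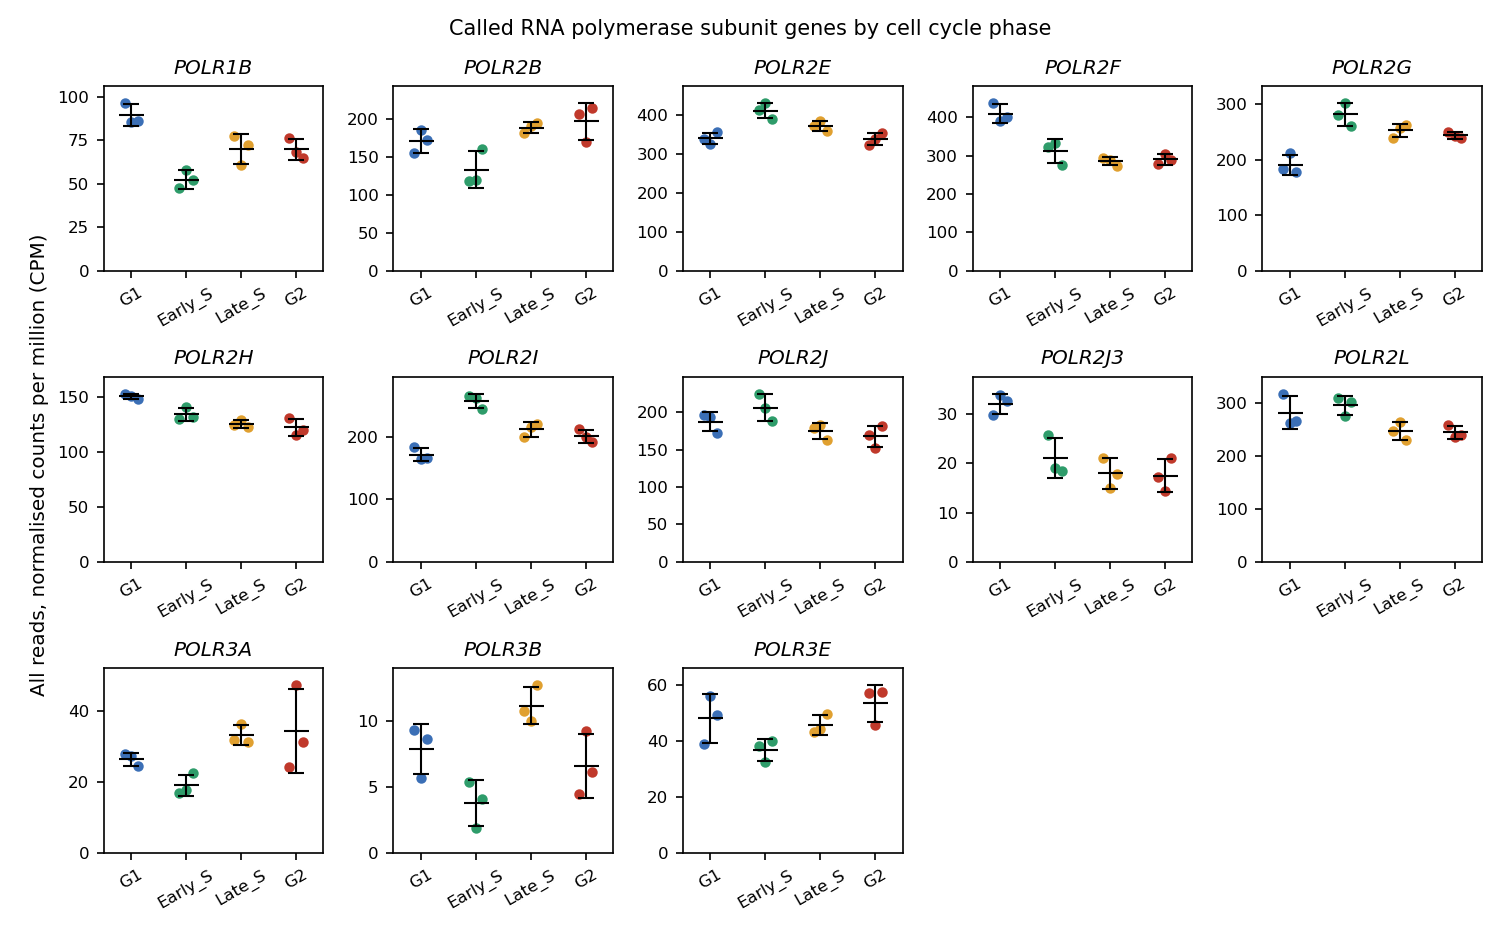
Normalised CPM of all reads for the 13 called genes in each of the 12 phase libraries (points), with the mean and SD of each phase (bars, n = 3); each panel has its own linear axis from 0. POLR1B and POLR3A have all 3 Early_S libraries below those of every other phase, while POLR2E and POLR2I have theirs above.

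Among the catalytic subunits, POLR1B, the second largest of polymerase I, measured 96.6, 85.5 and 86.2 CPM in G1, 47.4, 57.8 and 51.95 in Early_S, 77.6, 60.6 and 72.01 in Late_S and 76.4, 68.3 and 64.6 in G2 (normalised CPM). All 3 G1 libraries were above, and all 3 Early_S libraries below, those of every other phase. The change was -0.77 ± 0.13 (log2, SE) from G1 to Early_S (adjusted p = 1.48e-05) and 0.42 ± 0.13 from Early_S to Late_S (adjusted p = 0.0292), and G1 was above G2 by 0.36 ± 0.13 (adjusted p = 0.042). The second of these was lost without Early_S 1 or 3 or Late_S 1 or 3, with adjusted p of 0.0157 to 0.16 over the fits that left out 1 library, and when only the region with most reads was counted; the third was lost without G1 1 or 3 or G2 2 or 3 (0.0328 to 0.178). POLR1A, the largest subunit of polymerase I, measured 39.4, 35.98 and 36.2 CPM in G1, 20.6, 31.2 and 27.98 in Early_S, 33.3, 26.1 and 38.1 in Late_S and 41.8, 37.5 and 35.3 in G2. G1 and Early_S did not overlap and Late_S overlapped both. Its log2 change of -0.49 ± 0.18 from G1 to Early_S had an adjusted p of 0.0476, which left-out libraries moved over 0.0253 to 0.235: the call was lost without G1 1, 2 or 3, Early_S 1 or 3, Late_S 1 or 3 or G2 3, and when only the region with most reads was counted. Across the phases POLR1A was not called (adjusted p = 0.075).

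POLR2B, the second largest subunit of polymerase II, measured 154, 185 and 172 CPM in G1, 118, 119.7 and 160.4 in Early_S, 181, 189.8 and 194 in Late_S and 206, 169 and 214 in G2. Every Late_S library was above every Early_S library, and Early_S overlapped G1 through its library 3. It changed by -0.36 ± 0.11 from G1 to Early_S (adjusted p = 0.00984, lost without Early_S 1 or 2, over 0.000428 to 0.0642) and by 0.51 ± 0.11 from Early_S to Late_S (adjusted p = 0.000942). POLR3A, the largest subunit of polymerase III, measured 27.6, 27.1 and 24.3 CPM in G1, 16.8, 17.7 and 22.3 in Early_S, 31.7, 36.3 and 31.2 in Late_S and 24.2, 47.2 and 31.02 in G2. Its Early_S libraries were below those of all other phases, and G2 was spread over the range of G1 and Late_S. The rise from Early_S to Late_S was 0.81 ± 0.21 (adjusted p = 0.00694), whereas -0.48 ± 0.21 from G1 to Early_S was not called (adjusted p = 0.0895). POLR3B, the second largest subunit of polymerase III, was low, at 9.31, 5.70 and 8.64 CPM in G1, 5.34, 1.86 and 4.06 in Early_S, 10.7, 10.02 and 12.8 in Late_S and 4.48, 9.25 and 6.10 in G2. All Late_S libraries were above those of other phases and all Early_S libraries below those of G1 and Late_S. It changed by -1.07 ± 0.40 from G1 to Early_S (adjusted p = 0.0453) and by 1.57 ± 0.40 from Early_S to Late_S (adjusted p = 0.00659). The call across the phases was lost without Early_S 2 or Late_S 3 (0.00808 to 0.0743), the first change without G1 1 or 3, Early_S 2 or 3 or Late_S 1, 2 or 3 (0.0213 to 0.228) or without a filter on low counts, and the second without Early_S 2 (0.00429 to 0.052).

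POLR3E, which with POLR3D forms a subcomplex of polymerase III related to TFIIF, measured 38.8, 56.1 and 49.4 CPM in G1, 38.1, 32.4 and 39.96 in Early_S, 43.4, 44.1 and 49.8 in Late_S and 57.1, 45.8 and 57.6 in G2. Early_S lay below Late_S and G2 and overlapped G1. The call across the phases (adjusted p = 0.0425) was lost without G1 3, Early_S 1, 2 or 3, Late_S 1 or 2 or G2 1 or 3, over a range of 0.0213 to 0.183, and when only the region with most reads was counted; no single contrast was called. None of the other 7 polymerase III genes was called across the phases, among them POLR3C, POLR3F and the alternative subunits POLR3G and POLR3GL, which form the initiation subcomplex, POLR3D, and POLR3K, which takes part in termination and RNA cleavage.

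Among the subunits of polymerase II only, POLR2I, a small zinc-binding subunit tied to fidelity, measured 183, 165 and 166 CPM in G1, 266, 263 and 245 in Early_S, 199, 216 and 221 in Late_S and 213, 199.6 and 192 in G2. G1 was below and Early_S above every library of the other phases. It rose by 0.59 ± 0.09 from G1 to Early_S (adjusted p = 9.45e-07) and fell again in Late_S (-0.28 ± 0.08, adjusted p = 0.0243), and G1 was below G2 (-0.23 ± 0.09, adjusted p = 0.0453). The Late_S call was lost without Early_S 1 or 2 or Late_S 1 or 2 (0.0233 to 0.139). The call against G2 was lost without G1 2 or 3, Early_S 1, Late_S 1, 2 or 3 or G2 1 or 2 (0.0345 to 0.175), without a filter on low counts, and when only the region with most reads was counted. POLR2G, which with POLR2D forms the stalk, measured 183, 212 and 179 CPM in G1, 281, 303 and 262 in Early_S, 240.3, 258 and 262 in Late_S and 250.5, 243 and 239 in G2. Every G1 library was below all others, and Early_S was above G2 and overlapped Late_S slightly. It rose by 0.56 ± 0.08 from G1 to Early_S (adjusted p = 2.29e-06) and was lower in G1 than in G2 (a log2 change of -0.35 ± 0.08, adjusted p = 0.00181). Its partner POLR2D was not called (adjusted p = 0.445 across the phases).

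POLR2J, which pairs with POLR2C in the assembly platform, measured 196, 194 and 172 CPM in G1, 225, 205 and 188 in Early_S, 178, 183 and 163 in Late_S and 169, 153 and 181 in G2. Early_S was above Late_S and G2 and overlapped G1. The call (adjusted p = 0.0449) was lost without G1 1 or 2, Early_S 1 or 2, Late_S 1 or 3 or G2 1 or 2 (0.0272 to 0.262) and with RLE size factors, and no contrast was called. POLR2C itself was not called in all reads (adjusted p = 0.521). POLR2J3, the copy of POLR2J with mostly multimapped reads, measured 29.9, 33.9 and 32.7 CPM in G1, 25.7, 19.1 and 18.5 in Early_S, 21.2, 15.004 and 17.8 in Late_S and 17.2, 14.4 and 21.04 in G2. All G1 libraries were above those of the other phases, with -0.61 ± 0.22 from G1 to Early_S (adjusted p = 0.035) and 0.87 ± 0.22 for G1 against G2 (adjusted p = 0.00247). The first was also lost without G1 1, 2 or 3 or Early_S 2 or 3 (0.0182 to 0.137). No call of POLR2J3 across or between phases remained when multimapped reads were left out.

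The subunits common to all 3 enzymes did not share 1 pattern. POLR2E measured 339, 327 and 356 CPM in G1, 414, 432 and 391.7 in Early_S, 374, 385 and 360.0 in Late_S and 325, 339 and 355 in G2. Early_S was above every other library and Late_S above G1 and G2, and the rise from G1 to Early_S was 0.28 ± 0.07 (adjusted p = 0.00412). POLR2F went the other way, with 438, 390.1 and 400.4 CPM in G1, 324, 334 and 276 in Early_S, 295, 289 and 274 in Late_S and 279, 305 and 288 in G2. Every G1 library was above all others and the remaining phases overlapped; it changed by -0.40 ± 0.08 from G1 to Early_S (adjusted p = 0.000212) and was higher in G1 than in G2 by 0.49 ± 0.08 (adjusted p = 7.32e-06). POLR2H measured 153, 151 and 149 CPM in G1, 131, 141 and 132 in Early_S, 125, 129.5 and 122.8 in Late_S and 131, 116 and 121 in G2. Here too all G1 libraries were above the rest, and G1 exceeded G2 by 0.30 ± 0.10 (adjusted p = 0.0202, lost without G1 1 or G2 2 or 3, over 0.0178 to 0.0947). Its call across the phases (adjusted p = 0.0426) was lost without G1 1, 2 or 3, Early_S 3, Late_S 1, 2 or 3 or G2 2 or 3 (0.0335 to 0.141) and without a filter on low counts.

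POLR2L, a small zinc-binding subunit, measured 318, 263 and 266 CPM in G1, 309, 276 and 303 in Early_S, 247, 264 and 231 in Late_S and 259.5, 237 and 239.9 in G2. Early_S was above Late_S and G2, and G1 was spread across Early_S and the top of Late_S. It fell by 0.26 ± 0.08 on the log2 scale from Early_S to Late_S (adjusted p = 0.0391, lost without Early_S 1 or 3 or Late_S 1 or 3, over 0.0261 to 0.202), and the call across the phases was lost without Early_S 1 (0.00917 to 0.0646). POLR2K was not called (adjusted p = 0.856). Over the 15 members not called across the phases, apart from the sparsely read POLR2M, the highest phase mean was 1.09 to 2.04 times the lowest, with a median of 1.23. A p above the threshold does not show that their levels were equal.

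Counted by contrast, 9 of 29 members were called from G1 to Early_S, 3 higher (POLR2E, POLR2G, POLR2I) and 6 lower (POLR1A, POLR1B, POLR2B, POLR2F, POLR2J3, POLR3B), where 24.3% of all genes were called, 12.5% up and 11.8% down. The members' median change was -0.14 on the log2 scale, against -0.00 for all genes. From Early_S to Late_S 6 were called, 4 higher (POLR1B, POLR2B, POLR3A, POLR3B) and 2 lower (POLR2I, POLR2L), with 11.2% of all genes called, 6.99% up and 4.25% down; the median was -0.01, against -0.04 for all genes. From Late_S to G2 none was called by edgeR, where 0.145% of all genes were, and DESeq2 called none of the members. In the edgeR test 2 members had an unadjusted p under 0.05, as did 1315 of all 13755 genes. For G1 against G2, 4 were higher in G1 (POLR1B, POLR2F, POLR2H, POLR2J3) and 2 lower (POLR2G, POLR2I), and 21.1% of all genes were called, 10% higher in G1 and 11.1% lower. These contrasts share libraries: Early_S enters the first 2 and G1 enters the first and the last. The plot of changes between phases gives 28 of the 29 tested members.

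**Figure D2:**
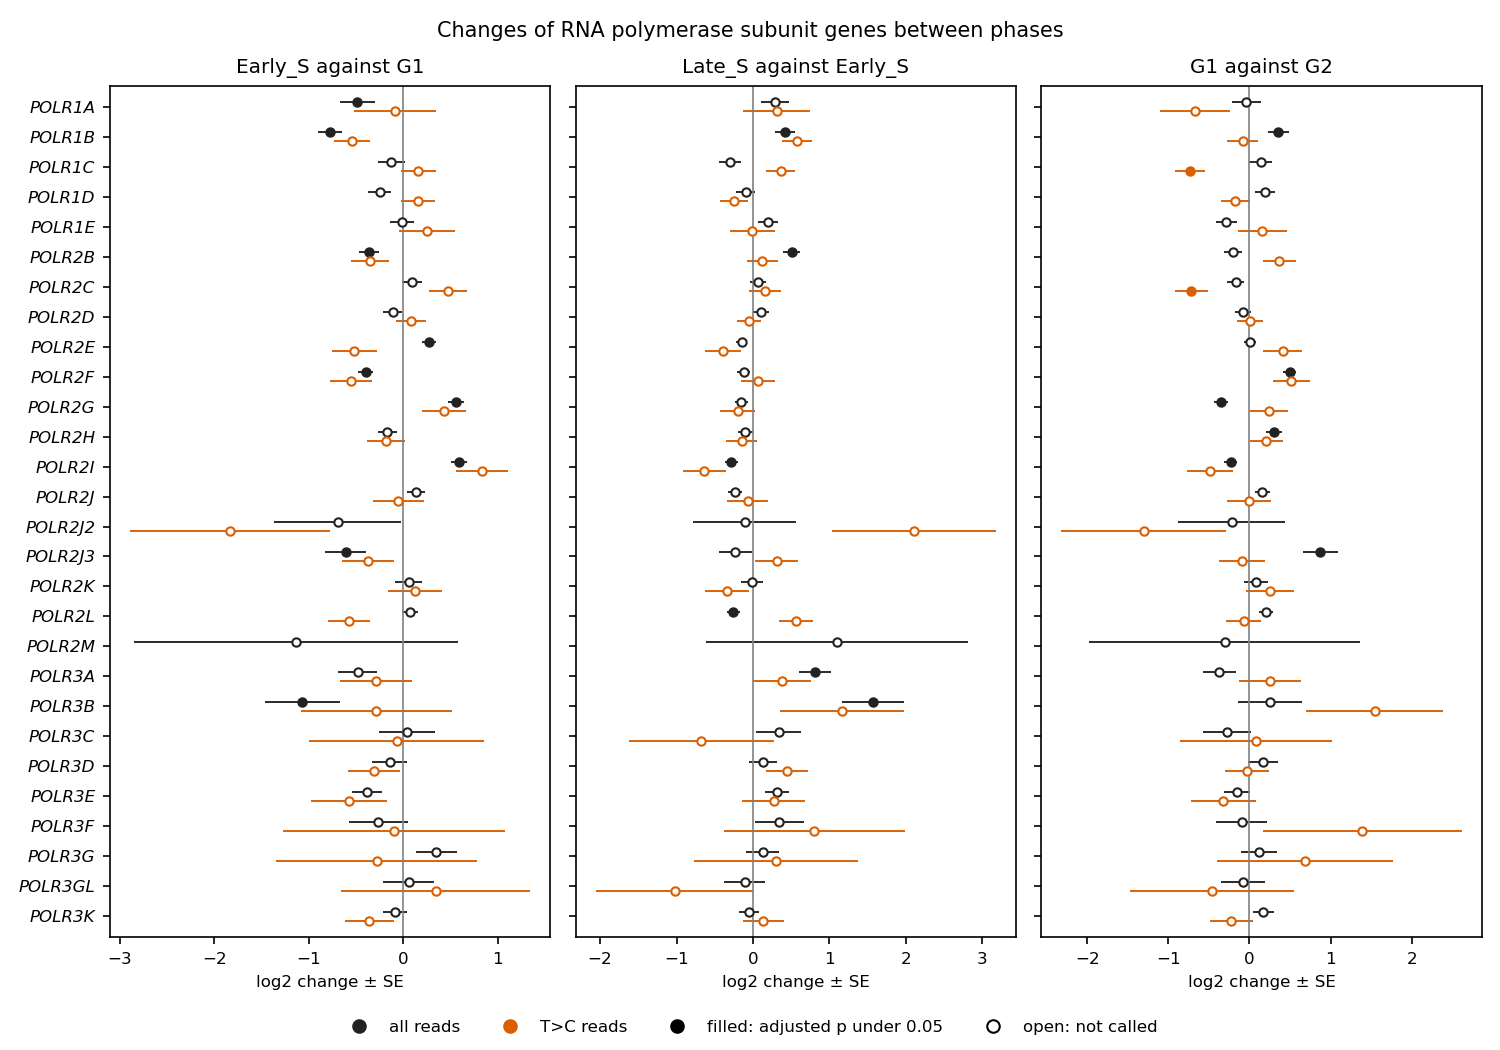
Log2 change ± SE of 28 of the 29 tested members between phases, for all reads (black) and T>C reads (orange); filled points have an adjusted p under 0.05 over all genes, open points do not. In all reads 9, 6 and 6 members are filled in the panels from left to right, and in T>C reads only POLR1C and POLR2C, both for G1 against G2.

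Newly made RNA was read from T>C reads. Scaled among themselves by TMM, so that the common fall in labelling is taken out, T>C reads differed across the phases for 1 of 28 tested members, where 10.4% of all 11474 tested genes were called. That gene was POLR1C, a platform subunit of polymerases I and III, with 156, 229 and 211 CPM in G1, 225, 229.7 and 212 in Early_S, 229, 333 and 295 in Late_S and 268, 311 and 412 in G2 of T>C reads. All G2 libraries were above all G1 libraries, while Late_S touched the top of G1. The call (adjusted p = 0.0242) was lost without G1 1 or 3, Early_S 3 or G2 3 (0.011 to 0.102). G1 was below G2 (a log2 change of -0.73 ± 0.19, adjusted p = 0.0123, lost without G1 1 or G2 3, over 0.00565 to 0.113).

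POLR2C was the other member called for G1 against G2 in T>C reads, where 7.3% of all genes were called and 4.4% were lower in G1. It measured 114, 92.99 and 113 CPM in G1, 152, 124 and 167 in Early_S, 165, 169 and 160.2 in Late_S and 159, 161 and 204 in G2 of T>C reads. G1 was below every other library, with a log2 change of -0.72 ± 0.21 against G2 (adjusted p = 0.0307), and the call was lost without G1 1, 2 or 3 or G2 3 (0.0307 to 0.135). The direction of both genes depends on the scaling. Scaled by all reads, G1 was above G2 by 0.50 for POLR1C and 0.53 for POLR2C, but the median of all genes was then 1.27 against 0.03 under TMM, so that relative to other genes both remained low in G1. No member was called by edgeR from G1 to Early_S (background 5.17%), from Early_S to Late_S (3.53%) or from Late_S to G2 (0.0523%). An unadjusted p under 0.05 was found for 6, 3 and 3 members, and for 1692, 1802 and 1158 of all 11474 genes. DESeq2 called 2, 1 and 0 members, and 850, 748 and 103 of all 11474 genes. With T>C reads scaled by all reads, 5 members were called lower from G1 to Early_S and 15 lower from Early_S to Late_S. For G1 against G2, 21 were then higher in G1. Under that scaling 835, 4199 and 6198 of all 11474 genes were called in these contrasts, in either direction.

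The labelled share is the percent of a gene's reads in a library with a T>C conversion. Over 15 libraries it was above No_alk for 28 of 29 tested members, all but POLR2M, where 84.4% of 12909 tested genes were. In No_alk the 28 members with at least 20 reads on average had shares of 0% to 1.46%, with a median of 0.458%. In G1 the same members had a median of 28.1%, against 27.0% for all 12359 genes with as many reads. The medians were 22.8% against 20.5% in Early_S, 12.4% against 10.1% in Late_S and 12.4% against 9.55% in G2, and 15 to 17 of the 28 members were above that of all genes in each phase.

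The members differed widely in share, as the plot of labelled share by gene shows. POLR1C was highest, at 70.1% ± 5.57 in G1 (SD, n = 3), above 92.1% of all genes, and 54.2% ± 7.72 in G2. Its 226-base region (chr6:43521301-43521526) ends 40881 bases before the RefSeq 3' end of the gene's longest extent. Next in G1 came the uncertain copy POLR2J3 at 62.5%, the polymerase III subunit POLR3D at 51.6%, the copy POLR2J2 at 48.5%, POLR1B at 47.6% and POLR3A at 46.8%. POLR2I was lowest at 8.80%, followed by POLR2E at 11.2%, POLR3GL at 11.3%, POLR2L at 11.3%, POLR2F at 12.4% and POLR2J at 12.4%. By use, the G1 median was 12.4% (range 11.2% to 36.9%) for the 5 subunits common to all enzymes and 24.7% (8.80% to 62.5%) for 8 of polymerase II only. It was 29.9% (11.3% to 51.6%) for 10 of polymerase III only and 24.6% (22.4% to 47.6%) for 3 of polymerase I only. POLR1D and POLR1C stood at 41.0% and 70.1%. These ranges overlapped, and the 8 of polymerase II only include the uncertain copies POLR2J2 and POLR2J3. The number of T positions in a region also sets this share. The conversion rate per T accounts for it. In G1 this rate ran from 1.17% for POLR3GL to 8.54% for the uncertain copy POLR2J3. It was 8.35% for POLR1C (above 92.1% of genes), 1.20% for POLR2E, 1.23% for POLR2I and 1.31% for POLR2F. For POLR2J it was 1.60% and for POLR2L 1.65%, so the order differed in part from that by share.

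**Figure D3:**
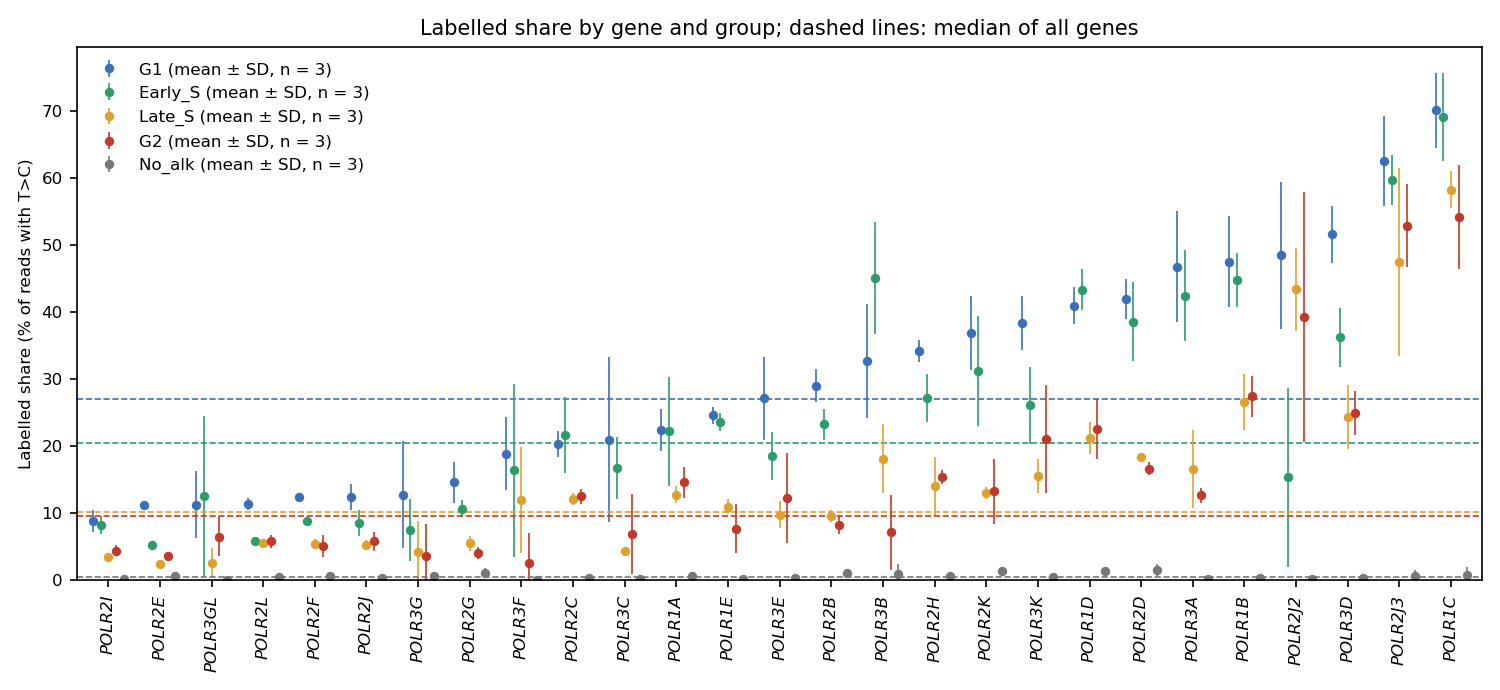
Labelled share (percent of reads with a T>C conversion; mean ± SD, n = 3) of 27 of the 28 members with at least 20 reads on average, in the 4 phases and No_alk, ordered by G1; dashed lines give the median of all genes in the same group. Members range in G1 from 8.80% (POLR2I) to 70.1% (POLR1C), and in No_alk none is above 1.46%.

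Tested against the common fall, as a ratio of T>C to other reads, the labelled share differed across the phases for 2 of 28 members, where 14.8% of 11291 tested genes did. Both, POLR2E and POLR2L, are subunits of all 3 enzymes. POLR2E had shares of 10.6%, 11.7% and 11.4% in G1, 4.57%, 5.30% and 5.70% in Early_S, 1.93%, 3.13% and 1.96% in Late_S, 3.67%, 3.81% and 3.26% in G2 and 1.31%, 0.352% and 0.395% in No_alk. Every G1 library was above the rest, and Late_S was below Early_S and G2. Relative to all genes the log2 ratio of POLR2E stood at -0.82 (Early_S), -0.88 (Late_S) and -0.19 (G2) from its G1 value, with an adjusted p of 0.00429. The test took off no background, and the Late_S shares of POLR2E lay closest to those of No_alk. POLR2L had shares of 12.3%, 10.5% and 11.1% in G1, 5.60%, 6.23% and 5.67% in Early_S, 5.63%, 4.91% and 5.99% in Late_S, 6.69%, 4.83% and 5.85% in G2 and 0.41%, 0.432% and 0.461% in No_alk. G1 was again above the rest while the other phases overlapped, with relative moves of -0.65, 0.42 and 0.51 (adjusted p = 0.000357). Both calls held in each of 12 fits that left out 1 library. With total reads as library size, which leaves the common fall in, 21 of 28 members were called, as were 7120 of all 11291 genes. All reads of POLR2E, as given above, were highest in Early_S, where its labelled share relative to other genes was below that of G1.

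**Figure D4:**
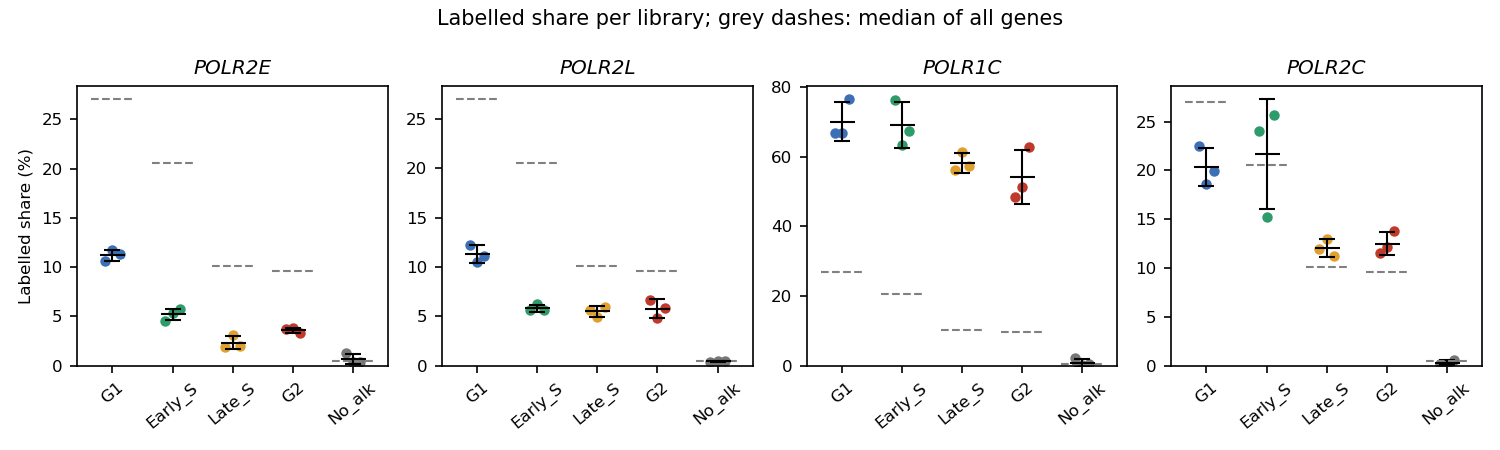
Labelled share in each library (points; bars are mean and SD, n = 3) for POLR2E, POLR2L, POLR1C and POLR2C, with the median of all genes in the group as a grey dashed line; each panel has its own axis from 0. POLR2E and POLR2L lie below the all-gene median in every phase, and POLR1C far above it.

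The libraries without alkylation offered a further comparison of levels in all reads. Against the mean of the 4 phases, 13 of 29 members were called, 8 higher and 5 lower, where 43.4% of 13972 tested genes were called, 22.5% up and 21% down. POLR3A measured 56.1, 64.8 and 55.2 CPM in No_alk, above its highest phase library of 48.0 CPM (1.09 ± 0.14, adjusted p = 1.27e-08). POLR3B measured 17.2, 18.8 and 14.03 CPM in No_alk (1.27 ± 0.26, adjusted p = 6.57e-05) and POLR3F 24.02, 19.6 and 25.7 CPM in No_alk (1.20 ± 0.21, adjusted p = 5.41e-06), each above all 12 phase libraries. POLR3GL was lower, at 6.55, 7.91 and 5.38 CPM in No_alk (-1.25 ± 0.25, adjusted p = 5.26e-05), below its lowest phase library of 11.8 CPM.

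POLR2E was also lower in No_alk, with 219, 218 and 207 CPM in No_alk against at least 327 CPM in every phase library (-0.78 ± 0.06, adjusted p = 1.48e-14). POLR2F, with 232, 238 and 235 CPM in No_alk, was below all phase libraries (-0.46 ± 0.06, adjusted p = 7.89e-08). POLR2J (-0.34 ± 0.08) and POLR2L (-0.19 ± 0.07) were called lower and POLR1D (0.30 ± 0.09), POLR1E (0.28 ± 0.10) and POLR3D (0.38 ± 0.14) higher, with libraries that overlapped some of the phases. The calls of POLR1D, POLR1E, POLR2L and POLR3D were each lost without 1 or 2 of the No_alk libraries: No_alk 3 for POLR1D (0.00217 to 0.117), 1 or 3 for POLR1E (0.00242 to 0.224), 1 or 3 for POLR2L (0.0112 to 0.0824) and 2 or 3 for POLR3D (0.00512 to 0.102). The uncertain copies POLR2J2 (2.14 ± 0.34) and POLR2J3 (1.18 ± 0.14) were higher too. The missing alkylation and any difference in the cells cannot be told apart here.

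**Figure D5:**
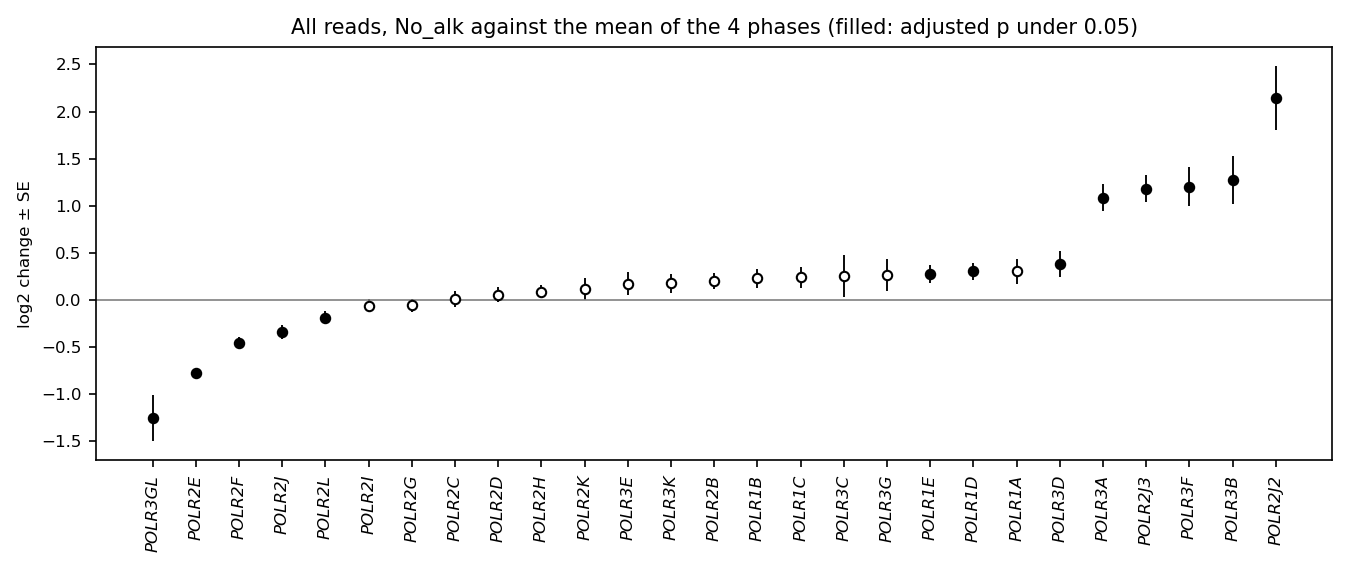
Log2 change ± SE in all reads of No_alk (n = 3) against the mean of the 4 phases for 27 of the 29 tested members (POLR2M, with few reads, is among those not drawn); filled points have an adjusted p under 0.05. POLR3GL and POLR2E lie lowest, and POLR3A, POLR2J3, POLR3F, POLR3B and POLR2J2 lie above 1.

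Where a gene had a second region with at least 5% of its reads, the share of the most used region was compared across the phases. Of 5 such members (POLR1D, POLR2F, POLR2I, POLR2J3, POLR3G), none passed after adjustment over these 5 exact permutation tests, and 1, POLR2I, had an unadjusted p under 0.05. POLR2I placed 57.4%, 60.2% and 59.6% of its reads in the region chr19:36113710-36113817 in G1, 67.1%, 63.5% and 63.0% in Early_S, 60.2%, 58.5% and 62.6% in Late_S and 59.4%, 57.3% and 58.8% in G2. Early_S was above the rest of the libraries in this share (two-sided exact permutation p = 0.0125, adjusted 0.0627).

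Factors that work with these enzymes were read from lists of named genes, and a level is given in normalised CPM of all reads. The median log2 change from G1 to Early_S was -0.21 for polymerase I factors, -0.09 for polymerase II general factors, -0.19 for Mediator, -0.25 for elongation factors, -0.17 for polymerase III factors, -0.05 for assembly factors and -0.57 for mitochondrial transcription factors, against -0.00 for all genes. The counts below stand beside 34.1% of all genes called across the phases, and 12.5% up and 11.8% down from G1 to Early_S. Among polymerase I factors 6 of 11 tested differed across the phases in all reads, with 1 up and 4 down from G1 to Early_S; DNA topoisomerase TOP1 measured 100.2 ± 14.3 CPM (G1), 60.6 ± 7.08 (Early_S), 112 ± 6.62 (Late_S) and 127 ± 7.41 (G2) and the nucleolar protein NOLC1 326 ± 13.5 CPM (G1), 236 ± 7.76 (Early_S), 297 ± 14.3 (Late_S) and 311 ± 12.99 (G2) (SD, n = 3). Of the polymerase I subunits under other symbols, CD3EAP (also POLR1G) differed, at 86.5 ± 13.9 CPM (G1), 56.2 ± 2.06 (Early_S), 77.8 ± 4.94 (Late_S) and 68.7 ± 4.67 (G2), and TWISTNB and ZNRD1 did not pass. Among polymerase II general factors 15 of 33 differed, 1 up and 7 down from G1 to Early_S; TAF1, the largest TFIID subunit, measured 17.4 ± 4.13 CPM (G1), 9.88 ± 2.06 (Early_S), 32.7 ± 2.72 (Late_S) and 37.3 ± 3.62 (G2) and the TFIIH helicase ERCC3 59.6 ± 6.90 CPM (G1), 35.4 ± 2.70 (Early_S), 51.96 ± 4.22 (Late_S) and 64.8 ± 7.46 (G2). Mediator, which bridges activators and polymerase II, had 11 of 33 called, a share near that of all genes, 1 up and 8 down, with MED1 at 175 ± 4.95 CPM (G1), 136 ± 9.05 (Early_S), 226 ± 8.21 (Late_S) and 215 ± 8.28 (G2) and MED15 at 81.2 ± 13.97 CPM (G1), 51.1 ± 3.30 (Early_S), 94.6 ± 13.8 (Late_S) and 109 ± 16.5 (G2).

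Elongation factors of polymerase II had 21 of 36 called across the phases, where 34.1% of all genes were, with 2 up and 7 down from G1 to Early_S (12.5% and 11.8% of all genes) and 10 up and 1 down from Early_S to Late_S (6.99% and 4.25%). SUPT5H, a subunit of DSIF, measured 250.4 ± 23.9 CPM (G1), 142 ± 9.11 (Early_S), 152 ± 9.01 (Late_S) and 159.9 ± 18.2 (G2), and AFF4, the scaffold of the super elongation complex, 54.98 ± 3.76 CPM (G1), 29.1 ± 6.26 (Early_S), 55.4 ± 8.52 (Late_S) and 62.4 ± 11.4 (G2). Polymerase III factors had 7 of 17 called, 3 up and 3 down from G1 to Early_S; SNAPC1, of the complex that binds small nuclear RNA promoters, measured 49.4 ± 2.39 CPM (G1), 93.1 ± 5.58 (Early_S), 105 ± 7.64 (Late_S) and 139 ± 15.1 (G2) and its partner SNAPC4 10.9 ± 1.35 CPM (G1), 4.88 ± 1.12 (Early_S), 11.7 ± 1.17 (Late_S) and 12.4 ± 3.33 (G2). CRCP, a polymerase III subunit, measured 41.999 ± 4.14 CPM (G1), 39.2 ± 10.5 (Early_S), 49.7 ± 3.24 (Late_S) and 63.1 ± 5.83 (G2) and was called. Polymerase assembly factors had 5 of 18 called, a share below that of all genes, 2 up and 3 down, with the GTPase GPN2 at 49.4 ± 7.41 CPM (G1), 32.2 ± 0.807 (Early_S), 30.5 ± 3.47 (Late_S) and 40.3 ± 7.55 (G2) and RPAP3 at 11.6 ± 1.26 CPM (G1), 22.5 ± 2.90 (Early_S), 17.9 ± 1.99 (Late_S) and 22.6 ± 4.72 (G2). Mitochondrial transcription factors had 4 of 8 called, all 4 down from G1 to Early_S, with TFAM at 127 ± 12.8 CPM (G1), 79.3 ± 8.83 (Early_S), 124 ± 7.19 (Late_S) and 138 ± 2.05 (G2) and TFB2M at 28.1 ± 6.55 CPM (G1), 9.73 ± 0.972 (Early_S), 21.3 ± 3.85 (Late_S) and 29.6 ± 4.67 (G2). Both joined names differed across the phases, GCOM1,POLR2M with an adjusted p of 0.000576 and POLR2J2,UPK3BL1 with 0.0398. GCOM1,POLR2M was lower in G1 than in G2 (a log2 change of -0.62 ± 0.12), and no contrast between phases was called for POLR2J2,UPK3BL1. Reads of a joined name cannot be assigned to either gene.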

How the data were processed

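SLAM-seq libraries of U2OS cells were analysed from the deposited tables, 1 per library. Per the file headers and the submitters' processing notes, the authors made them with slamdunk 0.2.4 on hg38 with Ensembl release 90: each region has deposited read counts, T>C read counts, multimapped read counts and T positions, together with a deposited CPM value and a deposited fraction, the conversion rate. For the aligner's settings and the conversion minimum: not given in the sources used here. The authors' CPM and conversion fraction entered no result: levels, shares and conversion rates were computed from the deposited counts, regions of 1 name being summed. The reads carry no molecular identifiers, so PCR copies add to the counts.

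Tests were edgeR 4.0.16 quasi-likelihood tests (TMM factors, filterByExpr with a minimum count of 10 and total of 15, Benjamini-Hochberg over all genes tested, called under 0.05, two-sided) in R 4.3.3; each adjusted p given comes from this model unless named otherwise. The 12 phase libraries shared 1 fit; No_alk entered a fit of 15 libraries. The labelled share was tested as T>C against other reads of a library, each kind with its own TMM factors; the test against No_alk used total reads as library size, over genes averaging 10 reads or more and summing to 10 T>C reads or more. The use of regions was tested by exact permutation over 369600 assignments of libraries to phases. Fits were tested on simulated data. Alternatives were RLE factors, DESeq2 1.42.0, no filter, a replicate block, the region with most reads, no multimapped reads, other scalings and leaving out each library.

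By rule, every gene of the name pattern is accounted for, those called across the phases in all reads or T>C reads are described singly, and up to 2 genes of each factor list with the smallest p across phases are named. POLR1A, the genes with the highest and lowest labelled shares, those called against No_alk and the 4 printed promoters were chosen after their values were seen. The NRF1 motif was also shortened, from a 10-base form to 8 bases, after the shares of windows holding the longer form had been seen; both forms were more frequent in the windows of polymerase genes than in all windows. Results that name 1 of the genes are not reported here, although the gene is in the counts and medians. The genes and lists were chosen with earlier results of these data known.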

Additional observations from a re-analysis of the deposited data

How the results depend on the processing

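In all reads, 12 or 13 polymerase genes were called across the phases under RLE factors, DESeq2, no filter on low counts or a replicate block. The same held for the region with most reads and for no multimapped reads. Over all genes these settings called 4542 to 5110. When 1 library was left out, 10 to 12 polymerase genes were called, and counts over all genes are not given for such fits. Leaving out 1 library gave 6 to 9 calls for Early_S against G1, 3 to 6 for Late_S against Early_S, 0 for G2 against Late_S, 3 to 6 for G1 against G2 and 10 to 15 for No_alk. T>C reads were more sensitive. Across the phases 4 genes were called by DESeq2 and 2 each with no filter and with the replicate block, and 0 to 2 when 1 library was left out. DESeq2 called 2 genes for Early_S against G1 and 1 for Late_S against Early_S; with 1 library left out these had 0, and G1 against G2 had 0 to 2. Scaling T>C reads by all reads, which keeps the common fall in labelling, gave 21 calls across the phases. It gave 5 for Early_S against G1, 15 for Late_S against Early_S and 21 for G1 against G2. Of all 11474 genes it called 6447, 835, 4199 and 6198 in the same order. The median of all genes moved to -0.33, -0.91 and 1.27 in the contrasts. POLR1C then changed by 0.50 and POLR2C by 0.53 in G1 against G2, the reverse of their sign under TMM. The labelled share called 21 genes with total reads as library size (7120 of all 11291 genes) and 2 in every fit without 1 library. Against No_alk, 28 genes were above in every such fit; separate TMM factors, which remove the bulk of this difference by construction, gave 10 and turned POLR2B to -0.49, POLR2E to -1.58, POLR2F to -0.82, POLR2G to -1.44, POLR2J to -0.025, POLR2K to -0.21, POLR2L to -0.53 and POLR3G to -1.61. Region use had 0 to 1 calls with 1 library left out, and 1, POLR2I, when the second region needed 20% of reads.

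Over all genes, counts moved by over 1.5 times for T>C reads across the phases (1192, against 1843 by DESeq2 and 6447 scaled by all reads), T>C reads from Early_S to Late_S (405, against 748 and 4199), T>C reads for G1 against G2 (838, against 6198 scaled by all reads), the labelled share (1676, against 7120 with total reads) and the test against No_alk (10901, against 3731 with separate TMM). From Late_S to G2 the count for all reads was 20, against 108 by DESeq2, 67 with no filter and 48 with the block, and for T>C reads 6, against 103 by DESeq2 and 33 with no filter. Whether replicate numbers pair the libraries was not settled, and the main fits did not use the numbers. Deviations of same-numbered libraries correlated at -0.02 to 0.03 in all reads and -0.02 to 0.09 in T>C reads over 18 pairs each, 0 of them above 0.1. Their medians were 0.0083 and 0.0136, against -0.0029 and -0.0024 for differently numbered libraries. Of 12 libraries, 9 and 8 matched best with their own number, although 36 pairs had different numbers and only 18 the same. Correlations this small over all genes cannot show that pairing is absent. The replicate block called 13 genes across the phases in all reads and changed no member's call there; in T>C reads it added POLR2E.

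Depth limits the sparse genes: POLR3B, POLR3F and POLR2J2 had phase means of 11.2 CPM or less. POLR2A had 37 reads and POLR2M 133 over 12 libraries. Their regions lie 14858 and 33889 bases from the RefSeq 3' end, so these counts do not give the level of either gene. With 3 libraries a phase, calls near the threshold rested on single libraries. The reads come from 3' ends, so regions far from a RefSeq end can stand for other transcripts.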
